A study of Mus musculus with 16 samples.

Results

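The Slc25a genes encode the mitochondrial carrier family, and their transcripts were followed here in RNA sequenced from the left ventricle of the heart and from subcutaneous white adipose tissue (scWAT) of mice. Of the 33641 gene symbols in the deposited tables, 47 were named Slc25a followed by a number. Among them, 40 had a mean of at least 1 TPM (a transcript level scaled for length and to one fixed total per library) in at least one tissue and are the carriers described here. In both tissues 38 carriers reached that mean, Slc25a13 reached it in heart alone and Slc25a48 in scWAT alone. The 7 others, Slc25a2, Slc25a18, Slc25a21, Slc25a31, Slc25a41, Slc25a43 and Slc25a54, stayed under it in both tissues.

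The series holds 16 libraries from 11 C57BL/6J mice aged 28 weeks. Hearts came from 4 mice with the genotype Adipo-HuR KO (A25, A29, A30 and A31), in which the series describes a deletion of HuR in adipocytes, and from 4 wild-type (WT) mice (A5, A7, A8 and A14). The scWAT libraries came from 3 Adipo-HuR KO mice (A24, A26 and A30) and 5 WT mice (A5, A7, A8, A12 and A14). Values of a group are given in the order of the mice just listed, so that A29 is always the second KO heart. HuR, the product of Elavl1, binds RNA and alters the stability of its targets. The sources used here do not give the promoter that drove the deletion or the exons removed, and a value per gene does not show which exons were read. Both tissues were taken whole, so that fewer cells of a type and less RNA per cell cannot be told apart. TPM keeps no sequencing depth, and the depth behind these values is unknown.

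Mitochondrial carriers are small proteins of the inner mitochondrial membrane that pass metabolites between the cytosol and the matrix, most often by exchanging one substrate for another. They let ATP out and ADP and phosphate in, move reducing equivalents through the malate-aspartate shuttle, bring in acylcarnitines for fatty acid oxidation, and export citrate for fatty acid synthesis. A beating heart depends on the ATP and phosphate carriers and on shuttles for fuel oxidation, whereas white adipocytes use citrate export to make fat. Some members sit elsewhere, such as Slc25a17 in peroxisomes and Slc25a46 in the outer mitochondrial membrane.

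Several libraries stood apart. Nppa, a natriuretic peptide of stressed heart muscle, stood at 6980.4, 52.7, 5021 and 5380.4 TPM in KO hearts and at 108, 121, 313 and 159.5 TPM in WT hearts. The heart labelled A29 KO therefore lay with the WT hearts, and heart results below are given with and without it. Among scWAT libraries, 13 skeletal muscle markers summed to 5393, 406 and 10739 TPM in KO mice and to 100.2, 1141, 139.7, 67.8 and 58.8 TPM in WT mice. B cell markers summed to 559 TPM in KO mouse A26 and to at most 23.8 TPM in the other scWAT libraries. Elavl1 stood at 42.9, 42.03 and 36.2 TPM in KO scWAT and at 33.4, 34.5, 27.6, 19.5 and 18.97 TPM in WT scWAT, so that it was not lower in the KO libraries. Transcripts encoded by mitochondrial DNA took 43.4% to 55.7% of TPM in KO hearts and 51.9% to 60.6% in WT hearts, against 10.6% to 12.3% in KO scWAT and 6.14% to 14.4% in WT scWAT. The cardiomyocyte markers summed to 18569 to 31340 TPM in KO hearts and 24948 to 34770.5 TPM in WT hearts, and the adipocyte markers to 10383 to 14749.6 TPM in KO scWAT and 16074 to 17836 TPM in WT scWAT, so both tissues carried the markers of their labels. Every KO scWAT library lay below every WT scWAT library in the adipocyte sum, whose part in the scWAT comparisons was not tested.

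The carriers were first compared between the tissues of WT mice. Heart was dominated by the carriers of oxidative phosphorylation. Slc25a4, the adenine nucleotide translocase of heart and muscle, averaged 2043 ± 296 TPM in WT hearts and 219.8 ± 26.3 TPM in WT scWAT (SD, n = 4 and 5). Slc25a3, which imports phosphate for ATP synthesis, averaged 912 ± 139.6 TPM in WT hearts and 317 ± 74.9 TPM in WT scWAT. Together with Slc25a5, the more widely expressed adenine nucleotide translocase, they made up 79.0% ± 0.69 of the summed TPM of the 40 carriers in WT hearts and 31.6% ± 1.95 in WT scWAT. In heart the next carriers were Slc25a11, the oxoglutarate carrier of the malate-aspartate shuttle, at 264 ± 22.97 TPM and Slc25a5 at 162 ± 14.4 TPM. These first 4 did not overlap one another over the WT hearts, whereas from the fifth to the eighth, Slc25a12, Slc25a20, Slc25a39 and Slc25a34, each overlapped its neighbour in rank.

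In WT scWAT the order was different and the levels were closer together. Slc25a1, which exports citrate from mitochondria for fatty acid synthesis, was the highest of the 40 by its mean of 504 ± 242 TPM, against 2.70 ± 0.47 TPM in WT hearts. Its values spread widely over the WT scWAT libraries, at 784, 751, 302, 316 and 367 TPM. Slc25a5, Slc25a3, the dicarboxylate carrier Slc25a10 and Slc25a4 followed, and each of these overlapped its neighbour. Slc25a39, which imports glutathione, came sixth at 159 ± 22.8 TPM, and Slc25a51, which imports NAD, was the eighth at 92.7 ± 20.5 TPM. In heart Slc25a1 ranked 31 and Slc25a10 ranked 24 of 40.

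**Figure D1:**
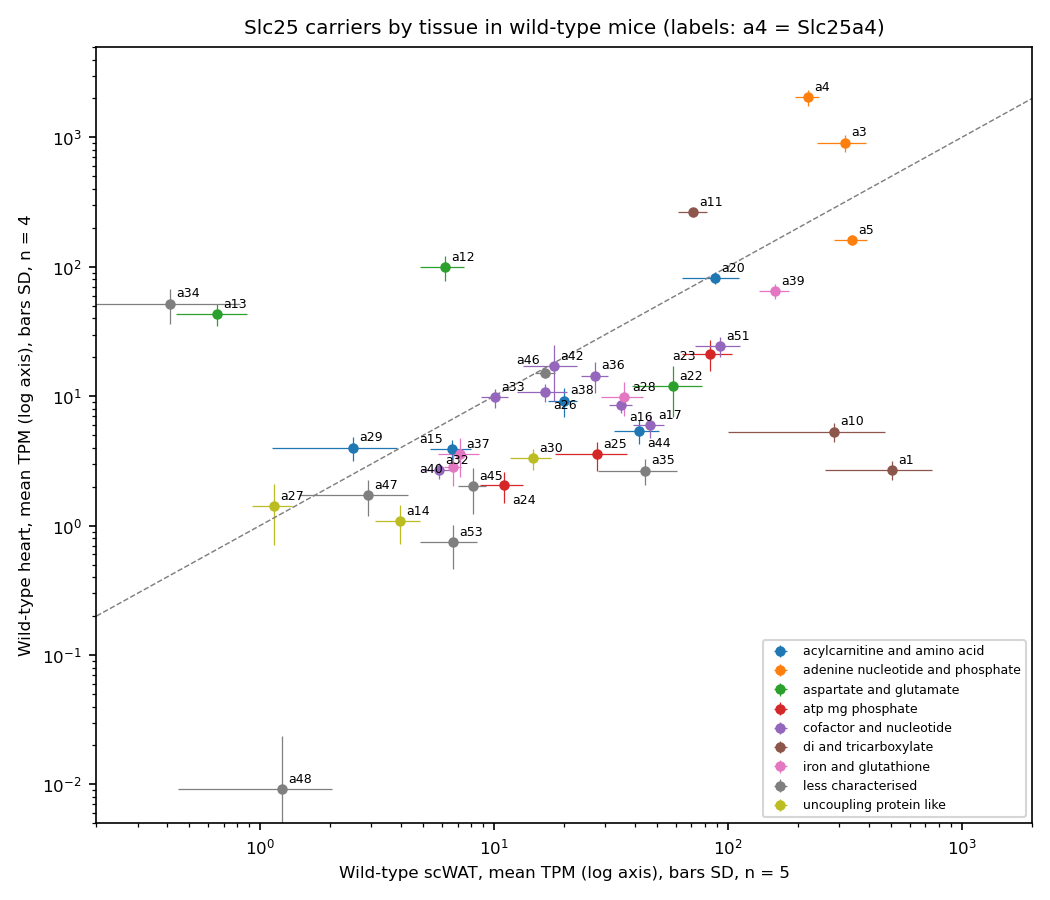
Mean TPM of 39 of the carriers in WT hearts (vertical log axis, n = 4) against WT scWAT (horizontal log axis, n = 5), with SD bars, a dashed line of equal TPM and colours for substrate roles. Slc25a34, Slc25a13, Slc25a12 and Slc25a4 lie far above the line, and Slc25a1, Slc25a10 and Slc25a48 lie far below it.

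Of the 40 carriers, 39 averaged 1 TPM or more over the 9 WT libraries and were tested. Higher in heart past an adjusted p of 0.05 were 6 of the 39, against 8.12% of all 13093 tested genes, and lower were 26, against 78.5% of all genes. Heart and scWAT did not overlap for 6 higher carriers (6.74% of genes) and 25 lower carriers (73.2%). Over this comparison all tested genes had a median of -1.27 on the log2 scale, and 17 of the 39 carriers lay below that median. With median-of-ratios scaling in place of TPM as deposited, 17 carriers were higher and 16 lower, and with mitochondrially encoded genes removed, whose shares of TPM are given above, 11 were higher and 17 lower. The 6 higher in heart were Slc25a4, Slc25a3, Slc25a11, Slc25a34 and both aspartate-glutamate carriers, Slc25a12 (also called Aralar) and Slc25a13 (also called citrin). Slc25a12 stood at 67.9, 113, 111 and 106 TPM in WT hearts and at 6.41, 6.93, 7.80, 4.57 and 5.10 TPM in WT scWAT, a difference of 3.80 on the log2 scale (SE 0.20, adjusted p by limma = 3.83e-09). Slc25a13 stood at 32.5, 40.8, 48.8 and 50.3 TPM in WT hearts and at 0.679, 0.770, 0.456, 0.428 and 0.960 TPM in WT scWAT, and Slc25a34, a carrier of unsettled substrate, at 33.6, 43.7, 64.9 and 65.4 TPM in WT hearts and at 0.171, 0.160, 0.290, 0.292 and 1.14 TPM in WT scWAT. No heart library overlapped any scWAT library for these 3 carriers.

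The carriers lowest in heart relative to scWAT handle citrate and dicarboxylates. Slc25a1 was lower in heart by a log2 fold change of -6.97 (SE 0.29, adjusted p = 4.99e-10) and Slc25a10, which exchanges malate or succinate for phosphate, by -5.27 (SE 0.38, adjusted p = 7.02e-08). All 3 ATP-Mg/phosphate carriers, Slc25a23, Slc25a24 and Slc25a25, were lower in heart as deposited and also lay below the median of all genes. Slc25a48 stood at 0.00665, 0.0303, 0 and 0 TPM in WT hearts and at 0.965, 1.01, 1.04, 0.567 and 2.61 TPM in WT scWAT and was not tested, since its mean over both tissues was under 1 TPM. Slc25a20, the carnitine-acylcarnitine carrier of fatty acid oxidation, averaged 82.03 ± 8.82 TPM in WT hearts and 87.9 ± 24.1 TPM in WT scWAT, which did not pass the test as deposited (adjusted p = 0.764). Relative to the median of all genes its change was 1.20, and 0.35 to 1.41 over 17 alternatives, of which 2 passed the threshold. Slc25a5 and Slc25a39 were lower in heart as deposited, but their changes relative to the median of all genes, 0.21 and -0.01, turned sign in some alternatives.

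The promoters of 4 carriers described in detail below are printed here. Slc25a12 and Slc25a34 were below the WT hearts in the KO hearts other than A29. Both were above WT scWAT in KO scWAT, though neither passed the adjusted threshold there. The others are the adenine nucleotide translocases Slc25a4 and Slc25a5, whose balance differed between tissues. Each promoter is the RefSeq sequence (GRCm38.p6) of the 250 bases before and the 50 bases after the annotated start of transcription, on the strand of the gene, 5′ to 3′. Capitals mark CCAAT boxes and AAGGTCA, the half-site bound by estrogen-related receptors, on either strand. The regions are chr2:71367706-71368005 (minus strand) for Slc25a12, chr4:141623785-141624084 (minus strand) for Slc25a34, chr8:46211013-46211312 (minus strand) for Slc25a4 and chrX:36795347-36795646 (plus strand) for Slc25a5.
Slc25a12: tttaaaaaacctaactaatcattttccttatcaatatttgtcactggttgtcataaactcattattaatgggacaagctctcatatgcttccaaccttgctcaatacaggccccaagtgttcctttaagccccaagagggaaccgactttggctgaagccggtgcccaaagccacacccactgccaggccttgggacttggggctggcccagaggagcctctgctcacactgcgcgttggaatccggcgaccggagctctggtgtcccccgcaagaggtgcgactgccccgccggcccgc
Slc25a34: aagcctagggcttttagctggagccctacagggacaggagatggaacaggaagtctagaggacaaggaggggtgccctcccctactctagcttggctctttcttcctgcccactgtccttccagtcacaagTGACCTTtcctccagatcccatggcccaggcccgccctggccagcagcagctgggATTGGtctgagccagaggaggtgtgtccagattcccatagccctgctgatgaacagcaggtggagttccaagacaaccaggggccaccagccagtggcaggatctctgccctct
Slc25a4: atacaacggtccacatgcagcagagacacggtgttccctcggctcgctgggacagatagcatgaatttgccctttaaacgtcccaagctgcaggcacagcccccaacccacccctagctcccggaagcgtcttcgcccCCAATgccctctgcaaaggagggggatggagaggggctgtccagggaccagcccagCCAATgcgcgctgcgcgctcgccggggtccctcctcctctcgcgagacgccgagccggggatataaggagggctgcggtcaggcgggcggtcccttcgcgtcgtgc
Slc25a5: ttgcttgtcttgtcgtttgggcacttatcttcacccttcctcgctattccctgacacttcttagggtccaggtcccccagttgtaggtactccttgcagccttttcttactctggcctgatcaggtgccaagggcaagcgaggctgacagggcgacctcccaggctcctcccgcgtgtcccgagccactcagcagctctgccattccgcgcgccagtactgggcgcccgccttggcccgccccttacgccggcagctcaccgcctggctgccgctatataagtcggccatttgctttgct

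The Slc25a34 promoter held AAGGTCA on the strand opposite the gene, beginning 119 bases before the start, and a CCAAT box on the same opposite strand, beginning 64 bases before the start, and the 2 did not overlap. The Slc25a4 promoter held 2 CCAAT boxes on the strand of the gene, beginning 112 and 56 bases before the start, and the Slc25a12 and Slc25a5 windows held neither run of letters. Over the 31 carriers found in the promoter table, AAGGTCA on either strand was in 1, against 5.38% of 27025 genes, and its longer form TNAAGGTCA was in 0, against 1.43% of genes. CCAAT on either strand was in 18 of the 31, against 41.1% of genes. GCGCNNGCGC, a run bound by nuclear respiratory factor 1, was in 2, Slc25a3 and Slc25a10, against 6.997% of genes. These are matches of letters in a fixed window, not measured sites.

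Adipo-HuR KO hearts were next compared with WT hearts. With all 8 libraries, 0 of 39 tested carriers passed an adjusted p of 0.05 by limma in either direction, against 0.0501% of 11981 genes higher and 0% lower. Before adjustment, 3 carriers at p under 0.05 were higher (20.9% of all genes) and 5 lower (3.66%). Over all tested genes the median was 0.26 on the log2 scale, and 27 of the 39 carriers lay below it. Leaving out A29 was decided from expression in these same data, which by itself tends to widen the gap between the groups. Counts and p-values without it, here and below, are therefore descriptive and not independent tests of genotype. Without A29, 9 carriers were higher in KO hearts past the threshold (34.8% of 12081 genes) and 8 were lower (4.16%), with a median of 0.39 over all genes. The groups then did not overlap for 12 higher carriers (45.3% of genes) and 7 lower carriers (3.65%). The share of higher carriers was thus below that of all genes and the share of lower carriers above it. With median-of-ratios scaling and without A29, 6 carriers were higher (19.5% of genes) and 22 lower (20.8%). Of the 17 carriers that passed without A29, A29 itself lay within the range of the WT hearts for 10, and over all 40 carriers it did so for 29. Changes below are log2 fold changes of KO over WT minus the median of all genes of the same fit, and adjusted p-values come from the fold changes before that subtraction. Fold changes are of TPM + 1, which understates the change of low genes.

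**Figure D2:**
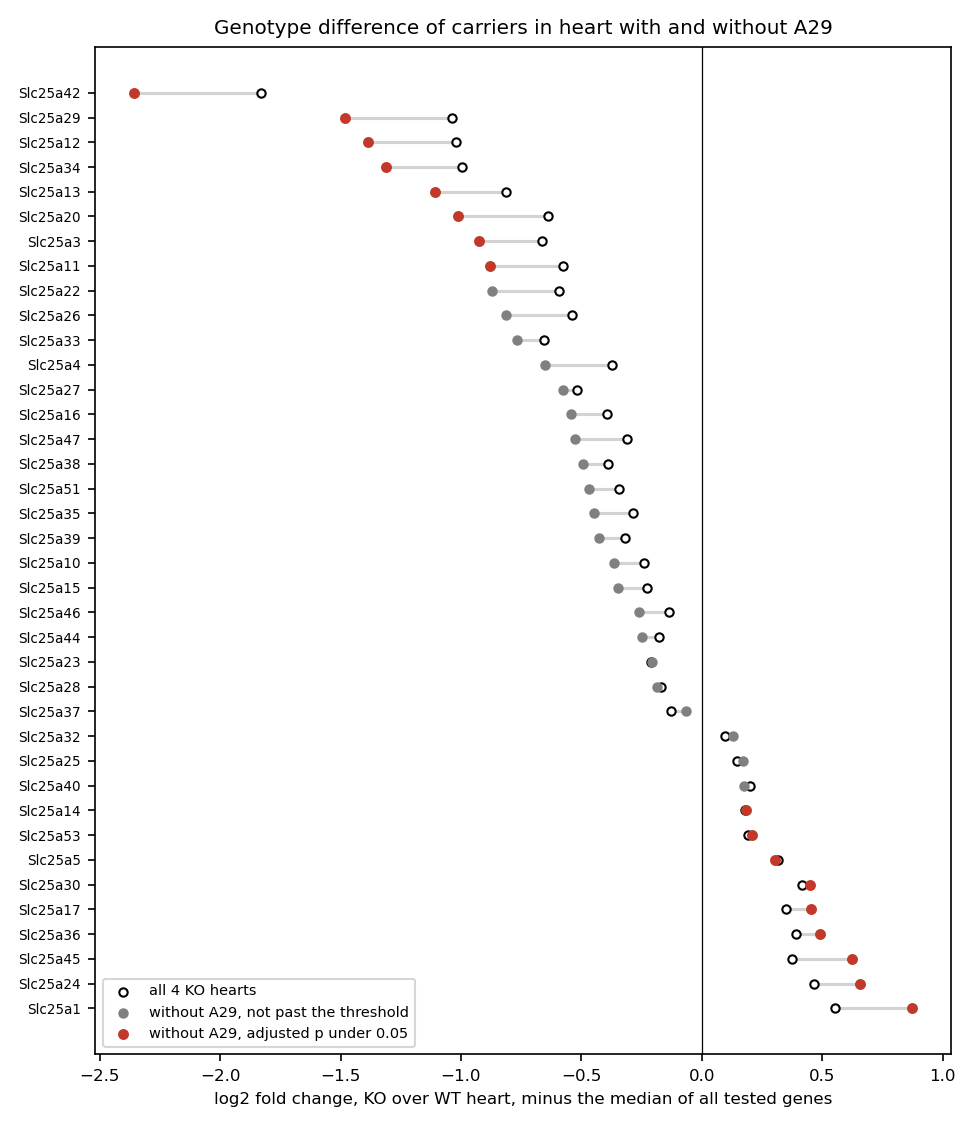
Log2 fold change of 38 of the tested carriers in KO over WT hearts minus the median of all tested genes, with all 4 KO hearts (open points) and without A29 (filled points, red where the adjusted p was under 0.05). Slc25a42 has the lowest values and Slc25a1 the highest, and for most carriers leaving out A29 moves the value away from 0.

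The aspartate-glutamate carriers were lower in KO hearts other than A29. They take glutamate into the matrix and pass aspartate out, a step of the malate-aspartate shuttle that brings cytosolic reducing equivalents to the respiratory chain. Slc25a12 stood at 44.3, 92.4, 59.6 and 42.9 TPM in KO hearts and at 67.9, 113, 111 and 106 TPM in WT hearts. A25, A30 and A31 were below every WT heart, and A29 was inside the WT range. The change was -1.02 with A29 (adjusted p = 0.149) and -1.38 without it (adjusted p = 0.00469). Slc25a13 stood at 24.3, 40.2, 30.8 and 22.05 TPM in KO hearts and at 32.5, 40.8, 48.8 and 50.3 TPM in WT hearts, again with A29 alone inside the WT range, and its change was -0.81 with A29 (adjusted p = 0.18) and -1.11 without it (adjusted p = 0.017). The glutamate carrier Slc25a22 stood at 4.81, 11.8, 16.6 and 5.12 TPM in KO hearts and at 4.43, 14.1, 15.5 and 13.98 TPM in WT hearts, overlapped widely and did not pass with or without A29. With median-of-ratios scaling and without A29 it was among the 22 lower (adjusted p = 0.0432).

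Among the carriers of fatty acid and cofactor supply, Slc25a42 and Slc25a29 had the lowest changes of all 39 without A29. Slc25a42, which brings coenzyme A into the matrix, stood at 1.66, 11.2, 8.94 and 1.66 TPM in KO hearts and at 5.67, 18.7, 22.8 and 20.8 TPM in WT hearts. A25 and A31 were below every other heart, whereas A30 and A29 lay between the WT heart A5 and the other WT hearts. Its change was -1.83 with A29 (adjusted p = 0.15) and -2.36 without it (adjusted p = 0.0189). Slc25a29, a carrier of basic amino acids, stood at 1.10, 4.51, 1.86 and 1.06 TPM in KO hearts and at 2.93, 3.76, 4.80 and 4.52 TPM in WT hearts, with a change of -1.04 with A29 (adjusted p = 0.176) and -1.48 without it (adjusted p = 0.00336). For Slc25a29 the KO hearts other than A29 were all under the WT hearts. Slc25a20 stood at 49.3, 103, 61.9 and 47.99 TPM in KO hearts and at 69.5, 82.1, 88.5 and 88.01 TPM in WT hearts, where A29 was the highest of all 8 and A25, A30 and A31 were the 3 lowest. Its change was -0.64 with A29 (adjusted p = 0.341) and -1.01 without it (adjusted p = 0.0108).

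The phosphate and oxoglutarate carriers were also lower without A29. Slc25a3 stood at 629, 895, 759 and 503 TPM in KO hearts and at 705, 965, 1011 and 968 TPM in WT hearts, and A30 overlapped the WT heart A5. The change was -0.66 with A29 (adjusted p = 0.237) and -0.93 without it (adjusted p = 0.0343). Slc25a11 stood at 204, 299, 192 and 167 TPM in KO hearts and at 234, 261, 287 and 275 TPM in WT hearts, with A29 the highest and the other KO hearts the lowest of the 8. Its change was -0.58 with A29 (adjusted p = 0.315) and -0.88 without it (adjusted p = 0.0147). Slc25a34 stood at 22.5, 43.7, 32.6 and 23.6 TPM in KO hearts and at 33.6, 43.7, 64.9 and 65.4 TPM in WT hearts, where the KO hearts other than A29 lay below the WT hearts, and its change was -0.996 with A29 (adjusted p = 0.156) and -1.31 without it (adjusted p = 0.017). Slc25a4 stood at 1837, 2539.7, 1653 and 1580.3 TPM in KO hearts and at 1669.6, 2043, 2393 and 2066 TPM in WT hearts and did not pass with A29 (change -0.37, adjusted p = 0.708) or without it (change -0.65, adjusted p = 0.153), but with median-of-ratios scaling and without A29 it was lower past the threshold (adjusted p = 0.0143).

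The 9 carriers higher in KO hearts without A29 included an adenine nucleotide translocase, the citrate carrier and relatives of the uncoupling proteins. Slc25a5 stood at 273, 186, 267 and 245 TPM in KO hearts and at 147, 166, 179.7 and 155 TPM in WT hearts, and all 4 KO hearts, A29 included, were above every WT heart. The change was 0.32 with A29 (log2 fold change 0.57, SE 0.17, adjusted p = 0.142) and 0.30 without it (adjusted p = 0.00202), and with median-of-ratios scaling and without A29 it did not pass (adjusted p = 0.465). Slc25a30, a relative of the uncoupling proteins first described in mouse kidney, was the other carrier whose groups did not overlap with A29 included, at 6.99, 3.81, 6.35 and 6.60 TPM in KO hearts and 2.42, 3.71, 3.62 and 3.48 TPM in WT hearts. Its change was 0.42 with A29 (adjusted p = 0.15) and 0.45 without it (adjusted p = 0.00768). With A29 kept, these were the 2 carriers higher without overlap (3.71% of all genes), and 0 were lower without overlap (0.634%).

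Slc25a1 stood at 5.66, 1.53, 10.1 and 8.26 TPM in KO hearts and at 2.12, 2.60, 2.86 and 3.23 TPM in WT hearts, with A29 the lowest of the 8 and the other KO hearts the highest. Its change was 0.55 with A29 (adjusted p = 0.239) and 0.87 without it (adjusted p = 0.00215), the highest change among the 39. Slc25a24, a calcium-sensitive ATP-Mg/phosphate carrier, stood at 4.49, 1.51, 5.92 and 5.33 TPM in KO hearts and at 1.52, 2.58, 2.44 and 1.65 TPM in WT hearts, and its change was 0.46 with A29 (adjusted p = 0.203) and 0.66 without it (adjusted p = 0.0035). The peroxisomal carrier Slc25a17 stood at 10.4, 5.44, 11.6 and 11.99 TPM in KO hearts and at 4.20, 6.92, 6.21 and 6.51 TPM in WT hearts, and its change was 0.35 with A29 (adjusted p = 0.203) and 0.45 without it (adjusted p = 0.00987). For these 3 carriers A29 lay below the highest WT heart, while the other KO hearts lay above every WT heart.

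Slc25a36, a pyrimidine nucleotide carrier, stood at 21.5, 13.4, 32.6 and 26.9 TPM in KO hearts and at 9.45, 18.6, 16.1 and 13.5 TPM in WT hearts, where A29 lay inside the WT range and the other KO hearts above it. Its change was 0.39 with A29 (adjusted p = 0.206) and 0.49 without it (adjusted p = 0.0172). The substrates of Slc25a45 and Slc25a53 are less settled. Slc25a45 stood at 4.43, 1.06, 5.29 and 5.06 TPM in KO hearts and at 1.13, 2.84, 2.49 and 1.62 TPM in WT hearts, with A29 the lowest of the 8, and its change was 0.37 with A29 (adjusted p = 0.304) and 0.62 without it (adjusted p = 0.00825). Slc25a53 stood at 1.31, 0.721, 1.98 and 1.57 TPM in KO hearts and at 0.440, 0.579, 1.01 and 0.939 TPM in WT hearts, with A29 inside the WT range, and its change was 0.19 with A29 (adjusted p = 0.258) and 0.21 without it (adjusted p = 0.0278). Slc25a53 averaged 0.74 TPM in WT hearts and reached the minimum of 1 TPM only through the KO hearts, so its place among the 9 is descriptive. Slc25a14, another relative of the uncoupling proteins, was the ninth carrier to pass without A29 and is named after its values were seen. Its change was 0.18 with A29 (adjusted p = 0.257) and 0.18 without it (adjusted p = 0.0315). Slc25a5, Slc25a53 and Slc25a14 no longer passed with median-of-ratios scaling and without A29, while the 6 others did.

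**Figure D3:**
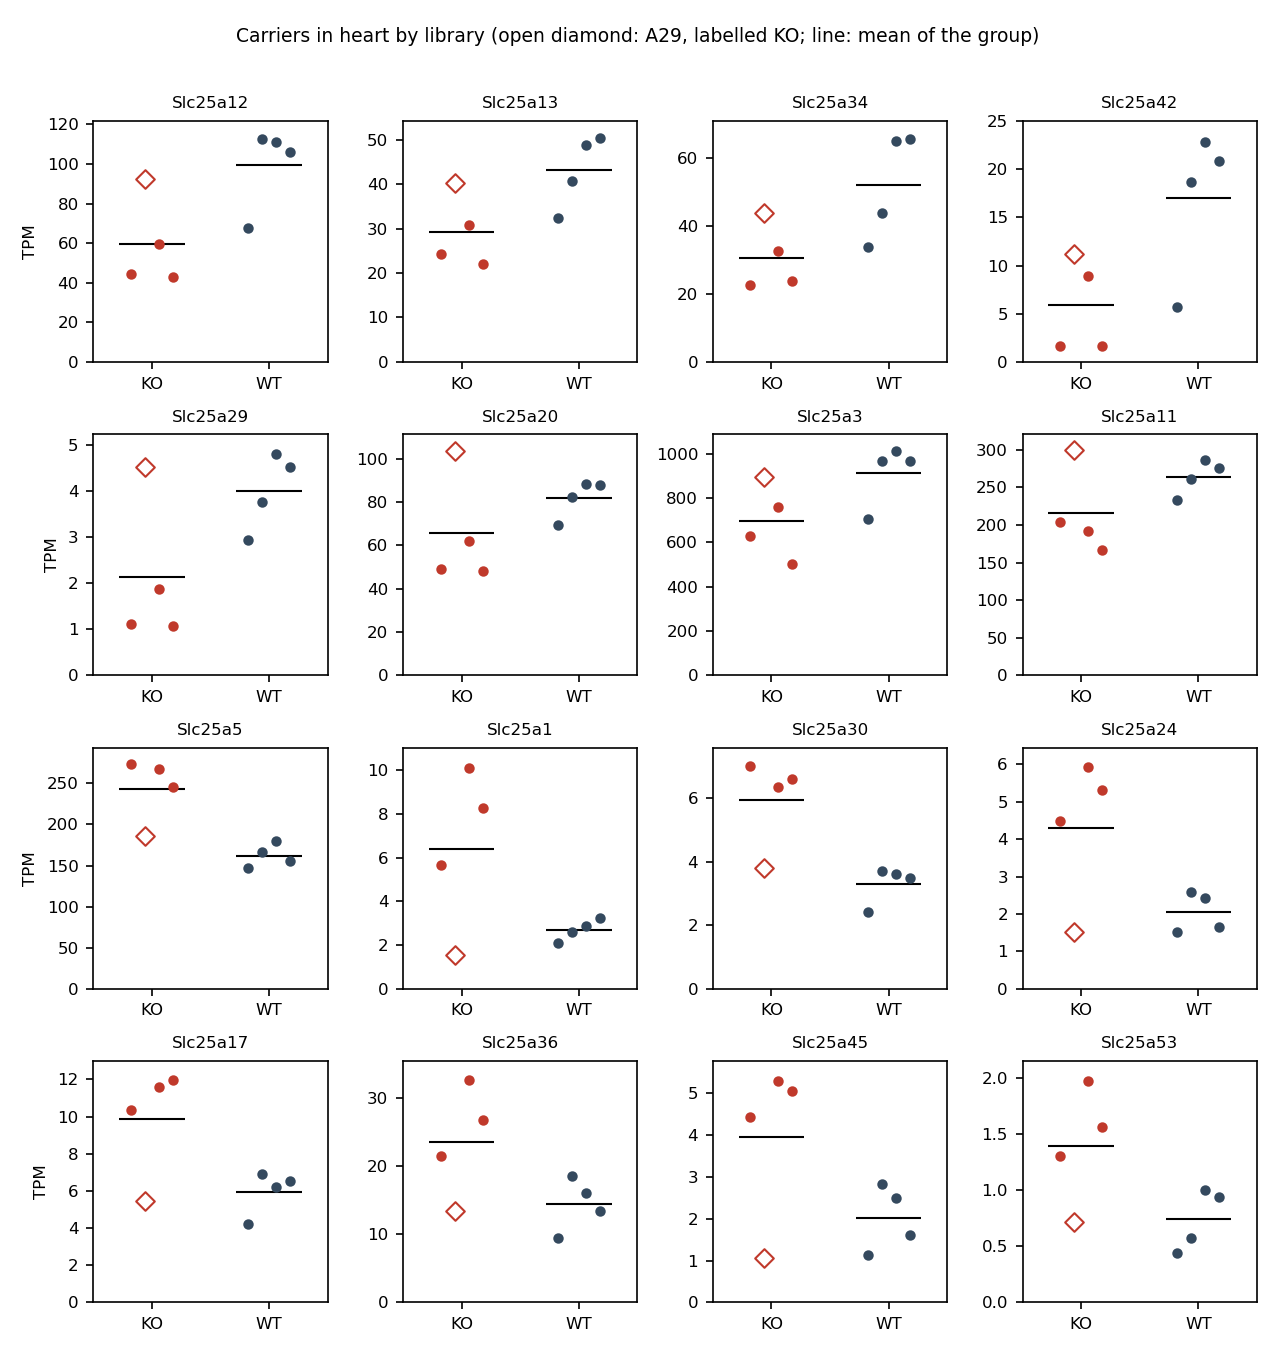
TPM of 16 carriers in each KO and WT heart, with A29 as an open diamond and group means as lines. The first 8 panels are carriers lower and the last 8 carriers higher in KO hearts without A29, and in most panels A29 lies beside the WT hearts.

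The other 22 carriers did not pass in heart with or without A29 on TPM as deposited. Among them were the iron carriers Slc25a37 and Slc25a28 (mitoferrin 1 and 2) and the glutathione carriers Slc25a39 and Slc25a40, so that 0 of these 4 passed. With median-of-ratios scaling and without A29, Slc25a39 was lower past the threshold (adjusted p = 0.0115) and the 3 others were not. Slc25a32, which carries folate or flavin, named after its values were seen, had the adjusted p nearest the threshold, 0.05002, without A29. Markers of other cells moved with the heart groups. Fibroblast markers summed to 2099, 231, 3409 and 2793 TPM in KO hearts and 187, 285, 300.2 and 284 TPM in WT hearts, and macrophage markers to 983, 120.5, 1035 and 1251 TPM in KO hearts and 123, 148, 195 and 137 TPM in WT hearts. All 6 of 6 genes of each list passed without A29. The 8 cardiomyocyte markers had a median change of -0.58 with A29, with 0 past the threshold, and of -0.86 without it, with 3 of 8 lower. Their part in the changes of the carriers was not tested.

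Near relatives were also set against each other within each library. Slc25a4 made up 87.1, 93.2, 86.1 and 86.6% of the summed TPM of Slc25a4 and Slc25a5 in KO hearts and 91.9, 92.5, 93.01 and 93.02% in WT hearts. The KO hearts other than A29 were thus all under the WT hearts, and A29 was above them. In scWAT the same share was 40.5% ± 9.58 in KO mice and 39.5% ± 1.89 in WT mice (SD, n = 3 and 5). Slc25a33, which like Slc25a36 carries pyrimidine nucleotides, made up 27.6, 33.6, 16.4 and 21.1% of the summed TPM of the pair in KO hearts and 45.5, 35.7, 42.1 and 40.6% in WT hearts, and here all 4 KO hearts, A29 included, were under every WT heart. In scWAT that share was 25.4% ± 5.74 in KO mice and 27.3% ± 3.24 in WT mice. Slc25a39 made up 93.9, 94.9, 93.7 and 92.1% of Slc25a39 and Slc25a40 in KO hearts and 96.9, 95.4, 95.4 and 95.9% in WT hearts, without overlap. For Slc25a12 of Slc25a12 and Slc25a13 the share was 66.6% ± 2.16 in KO hearts and 69.6% ± 2.68 in WT hearts, and for Slc25a37 of Slc25a37 and Slc25a28 it was 27.1% ± 4.70 and 26.2% ± 4.74 in KO and WT hearts, both with overlap. These shares do not depend on the scaling of a library, and no test was made of them. Reads shared by near-identical relatives may have been split between them in counting, which leaves these pairs uncertain to that extent.

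As a whole the 40 carriers took 0.63%, 1.01%, 0.61% and 0.57% of the TPM not encoded by mitochondrial DNA in KO hearts and 0.80%, 0.86%, 0.94% and 0.87% in WT hearts. A25, A30 and A31 were below the WT hearts and A29 above them. Over all TPM the shares were 0.336%, 0.446%, 0.343% and 0.291% in KO hearts and 0.316%, 0.402%, 0.452% and 0.408% in WT hearts, where the groups overlapped with or without A29. In scWAT the share of TPM not encoded by mitochondrial DNA was 0.294% ± 0.023 in KO mice and 0.306% ± 0.063 in WT mice.

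The genes that work with the carriers were read from lists, as counts past the threshold beside the 34.8% of all genes that were higher and the 4.16% that were lower without A29. With all 8 hearts 0 genes of these lists passed in either direction. Their counts without A29 also moved with the scaling, and each is followed by its value with median-of-ratios scaling and without A29, where 19.5% of all genes were higher and 20.8% lower.

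Enzymes and complexes of fuel oxidation had medians below that of all genes. Among 12 ATP synthase and respiratory chain genes the median change was -0.46 with A29 and -0.69 without it. Without A29, 0 of the 12 were higher and 4 lower, and with median-of-ratios scaling 10 were lower. Among 4 malate-aspartate shuttle enzymes the median was -0.69 with A29 and -0.93 without it, when 2 were lower, and with median-of-ratios scaling all 4 were. These 2 were the aspartate aminotransferases. Got1 stood at 192, 366, 253 and 154 TPM in KO hearts and at 277, 353, 372 and 347 TPM in WT hearts, with A29 inside the WT range, and its change was -0.81 with A29 (adjusted p = 0.203) and -1.16 without it (adjusted p = 0.0081). Got2 had a change of -0.77 with A29 (adjusted p = 0.171) and -1.01 without it (adjusted p = 0.0273). Among 5 carnitine shuttle genes the median was -0.67 with A29 and -0.90 without it, when 2 were lower, and with median-of-ratios scaling 4 were. These 2 were Crat and Cpt2, carnitine acyltransferases of the matrix side, with changes of -1.08 and -0.93 with A29 (adjusted p = 0.15 and 0.179) and -1.44 and -1.26 without it (adjusted p = 0.0119 and 0.0216). Among 5 genes around citrate and glutamine 1 was lower without A29, the citrate synthase Cs, with a change of -0.95 with A29 (adjusted p = 0.172) and -1.25 without it (adjusted p = 0.029), and with median-of-ratios scaling 2 were lower. Of 6 heme and iron genes 0 passed without A29, and 2 were lower with median-of-ratios scaling.

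The genes of carrier import had a median change of 0.23 with A29 and 0.24 without it. Without A29, 6 of 11 were higher and 0 lower, but with median-of-ratios scaling 0 were higher and 1 lower. Among them Timm8b, an intermembrane space chaperone that escorts carriers to the inner membrane, stood at 226, 143, 212 and 246 TPM in KO hearts and 115, 135, 142 and 128 TPM in WT hearts. Its change was 0.38 with A29 (adjusted p = 0.142) and 0.42 without it (adjusted p = 0.00107), and it did not pass with median-of-ratios scaling (adjusted p = 0.262). Of 4 tested carriers with other symbols 3 were higher without A29, and with median-of-ratios scaling 1 was higher and 1 lower. The uncoupling protein Ucp2 stood at 85.2, 22.6, 145 and 87.1 TPM in KO hearts and 24.6, 44.4, 45.6 and 32.1 TPM in WT hearts, with A29 the lowest of the 8. Its change was 0.71 with A29 (adjusted p = 0.226) and 1.11 without it (adjusted p = 0.00174).

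Of 8 regulators of mitochondrial genes 3 were lower and 1 higher without A29, and with median-of-ratios scaling 4 were lower and 0 higher. The coactivator Ppargc1a stood at 10.4, 21.3, 17.3 and 9.92 TPM in KO hearts and 18.6, 47.9, 33.1 and 23.3 TPM in WT hearts, with A29 between the WT hearts. Its change was -1.25 with A29 (adjusted p = 0.142) and -1.57 without it (adjusted p = 0.0157). Of 18 other inner-membrane transport genes 5 were higher and 1 lower without A29, a smaller share higher than among all genes, and with median-of-ratios scaling 3 were higher and 6 lower. Mcub, a subunit that restrains the calcium uniporter, stood at 4.62, 0.791, 5.58 and 6.04 TPM in KO hearts and 0.670, 1.74, 1.09 and 0.941 TPM in WT hearts. Its change was 0.91 with A29 (adjusted p = 0.149) and 1.23 without it (adjusted p = 3.52e-04). Of 3 outer-membrane channels 1 was higher and 1 lower without A29, and with median-of-ratios scaling 0 were higher and 1 lower.

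In scWAT, KO mice were compared with WT mice over 13682 genes, with a median of 0.03 on the log2 scale. Of 39 tested carriers 0 passed an adjusted p of 0.05 by limma, against 0.0146% of all genes higher and 0.00731% lower. With no adjustment, a p under 0.05 was reached by 3 that were higher (8.11% of genes) and 2 that were lower (7.52%). The groups did not overlap for 2 carriers that were higher in KO mice (5.23% of genes) and for 0 that were lower (5.06%). These 2 were Slc25a12 and Slc25a34, both among the carriers that were lower in KO hearts without A29. Their number was near the share of all genes, so it does not set the carriers apart from other genes.

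Slc25a12 stood at 15.05, 11.3 and 13.3 TPM in KO scWAT and at 6.41, 6.93, 7.80, 4.57 and 5.10 TPM in WT scWAT. The lowest KO library was above the highest WT library. The log2 fold change was 1.000 (SE 0.19, adjusted p = 0.198), rank 31 of all tested genes by p. Slc25a34 stood at 1.54, 2.54 and 2.54 TPM in KO scWAT and at 0.171, 0.160, 0.290, 0.292 and 1.14 TPM in WT scWAT, where A14 was nearer to the KO libraries than the other WT libraries were. The log2 fold change was 1.21 (SE 0.30, adjusted p = 0.216). Slc25a34 averaged 0.41 TPM in WT scWAT and 2.21 TPM in KO scWAT, and reached the minimum of 1 TPM only through the KO libraries. Its p-value and its place among the 2 carriers without overlap are therefore descriptive.

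Markers of other cells also differed between these libraries. KO mice A24 and A30, with 5393 and 10739 TPM of summed skeletal muscle markers, had 15.1 and 13.3 TPM of Slc25a12. KO mouse A26, with 406 TPM of muscle markers, had 11.3 TPM, while WT mouse A7, with 1141 TPM of muscle markers, had 6.93 TPM. Slc25a34 was likewise 2.54 TPM in A26 and 0.16 TPM in A7. The thermogenic adipocyte markers summed to 461, 969.9 and 797 TPM in KO scWAT and 230.3, 306, 164, 138 and 570.1 TPM in WT scWAT. Here WT mouse A14 exceeded KO mouse A24, and Slc25a12 was 5.10 TPM in A14 and 15.1 TPM in A24. Slc25a34 fell in the order A26, A30, A24 and A14, at 2.54, 2.54, 1.54 and 1.14 TPM, above the other libraries. Ucp1 fell in the same order, at 186, 70.2, 8.85 and 1.16 TPM, while the other WT libraries differed in order. With covariates for muscle and B cell markers, each list's mean, the change was 0.81 for Slc25a12 and 1.72 for Slc25a34, both with adjusted p = 0.964. Over all alternatives the adjusted p ran from 0.04 to 0.964 for Slc25a12 and from 0.109 to 0.964 for Slc25a34, and the lowest for Slc25a12 came with array weights. Beyond these values the part of those cells in the difference was not tested.

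**Figure D4:**
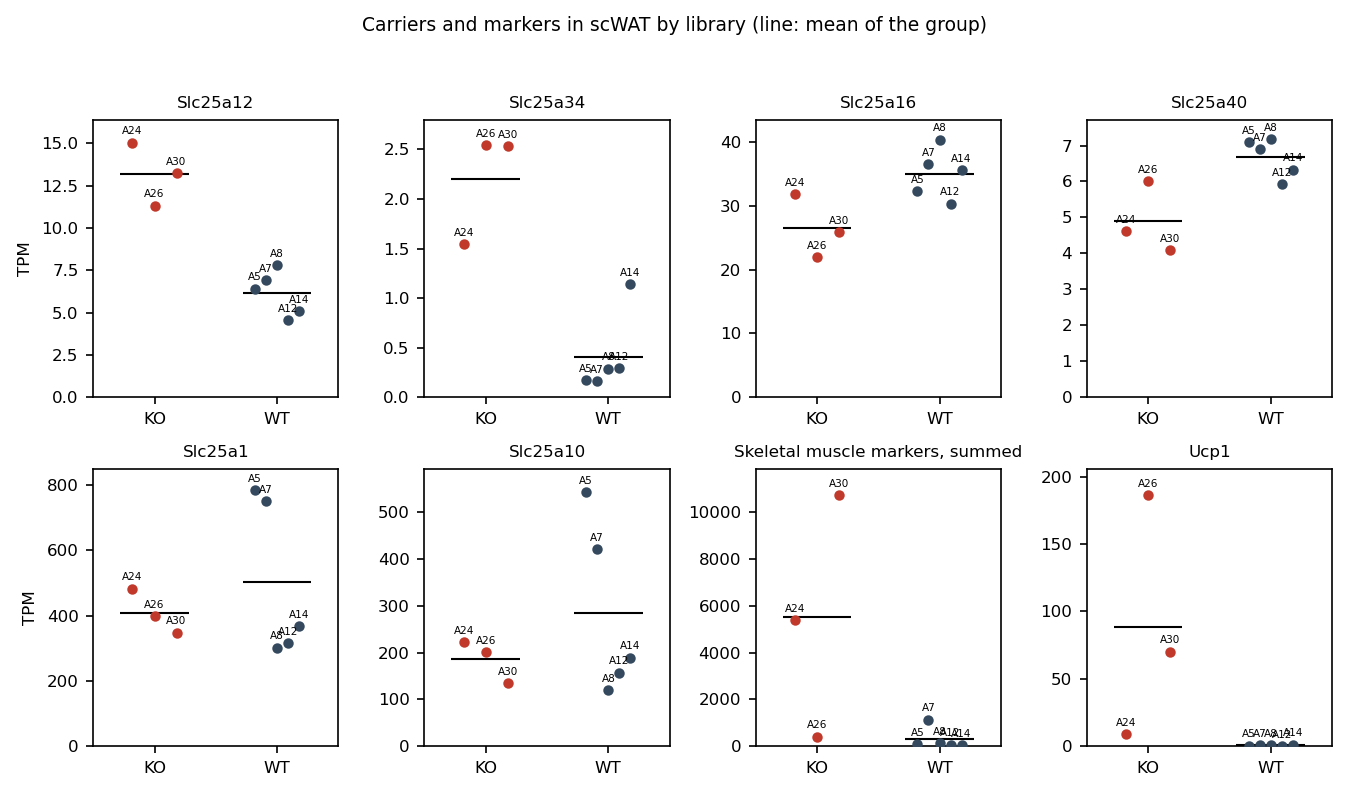
TPM in each KO and WT scWAT library for 6 carriers, the summed skeletal muscle markers and Ucp1, with group means as lines. Slc25a12 and Slc25a34 are higher in all 3 KO libraries than in any WT library, and the muscle markers are highest in A30 and A24.

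The 4 other carriers named here came next by p, and their groups overlapped. Slc25a16, implicated in coenzyme A supply, stood at 31.8, 21.9 and 25.8 TPM in KO scWAT and at 32.3, 36.5, 40.4, 30.3 and 35.6 TPM in WT scWAT (log2 fold change -0.40, SE 0.16, adjusted p = 0.282). Slc25a40 stood at 4.61, 6.01 and 4.09 TPM in KO scWAT and at 7.09, 6.91, 7.18, 5.93 and 6.33 TPM in WT scWAT (log2 fold change -0.39, SE 0.16, adjusted p = 0.294). For both, one KO library lay inside the WT range and the other 2 below it. Slc25a30 stood at 16.5, 22.9 and 22.96 TPM in KO scWAT and at 17.1, 18.2, 14.1, 12.9 and 11.04 TPM in WT scWAT (log2 fold change 0.48, SE 0.19, adjusted p = 0.289), and Slc25a36 at 34.6, 30.7 and 34.5 TPM in KO scWAT and 24.7, 26.8, 33.04, 24.3 and 26.8 TPM in WT scWAT (log2 fold change 0.29, SE 0.14, adjusted p = 0.339). The covariates for muscle and B cell markers turned the sign of Slc25a30. The abundant carriers Slc25a1, Slc25a5, Slc25a3 and Slc25a4 had log2 fold changes of -0.18, 0.03, -0.04 and 0.07 (SE 0.36, 0.17, 0.20 and 0.21) and adjusted p-values of 0.813, 0.943, 0.927 and 0.873.

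Among the partner lists in scWAT 0 genes passed the threshold. Before adjustment, 3 of 6 heme and iron genes were lower in KO mice at p under 0.05 by limma, against 7.52% of all genes. Among these, Fech stood at 52.5, 39.2 and 57.5 TPM in KO scWAT and at 66.7, 70.2, 67.9, 65.4 and 67.9 TPM in WT scWAT, without overlap. Mtch1, a carrier with another symbol, was also lower without overlap, at 169, 126 and 166 TPM in KO scWAT and 220, 251, 190, 184 and 184 TPM in WT scWAT. The malate-aspartate enzyme Got1 stood at 17.8, 17.1 and 17.03 TPM in KO scWAT and at 8.90, 9.78, 10.95, 6.20 and 7.05 TPM in WT scWAT, without overlap (log2 fold change 0.96, SE 0.18, adjusted p = 0.198), the same side as Slc25a12. In heart both were below every WT heart in the KO hearts other than A29, and A29 lay inside the WT range. The other 3 enzymes of that shuttle list, Mdh1, Mdh2 and Got2, were not above WT without overlap. Mdh1 was below every WT library, at 544, 620.2 and 616 TPM in KO scWAT and 861, 849, 662, 687 and 659 TPM in WT scWAT. Mdh2 stood at 371, 381 and 405 TPM in KO scWAT and 469.99, 442, 338, 346 and 419 TPM in WT scWAT, and Got2 at 27.2, 28.3 and 32.1 TPM in KO scWAT and 21.9, 25.5, 34.2, 29.1 and 24.6 TPM in WT scWAT, both with overlap. Cpt1b, the muscle form of the carnitine palmitoyltransferase that feeds Slc25a20, stood at 11.9, 21.8 and 28.8 TPM in KO scWAT and at 11.01, 9.22, 3.99, 5.78 and 9.68 TPM in WT scWAT (log2 fold change 1.28, SE 0.35, adjusted p = 0.216). Cpt1a, the more abundant form in scWAT, went the other way by its mean, with overlap. It stood at 32.8, 28.3 and 48.3 TPM in KO scWAT and at 57.5, 68.6, 38.3, 50.5 and 47.5 TPM in WT scWAT. Ucp1, the uncoupling carrier of thermogenic adipocytes, stood at 8.85, 186 and 70.2 TPM in KO scWAT and at 0.405, 0.587, 0.711, 0.0401 and 1.16 TPM in WT scWAT (log2 fold change 5.05, SE 0.78, adjusted p = 0.0994).

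The change in heart minus the change in scWAT was then tested over 11536 genes and 38 carriers. With all 16 libraries 0 carriers passed an adjusted p of 0.05 by limma, against 0.00867% of genes higher and 0.052% lower, and without adjustment 4 were higher (17% of genes) and 4 lower (3.42%) at p under 0.05. Slc25a12 and Slc25a34 ranked 13 and 15 of all genes. In scWAT Slc25a34 reached the minimum only through the KO libraries here too, so its rank and p-values are descriptive. The difference was -1.77 (SE 0.35, adjusted p = 0.0863) for Slc25a12 and -1.95 (SE 0.39, adjusted p = 0.0863) for Slc25a34 on the log2 scale, both lower in heart and higher in scWAT of KO mice. Got1 had a difference of -1.51 (SE 0.33, adjusted p = 0.0898). Without A29, 4 carriers were lower (2.27% of genes), Slc25a12, Slc25a34, Slc25a29 and Slc25a42, with adjusted p-values of 3.16e-04, 9.74e-04, 0.0121 and 0.013. The 5 higher without A29 (22.4% of genes) were Slc25a24, Slc25a17, Slc25a40, Slc25a1 and Slc25a5, with adjusted p-values from 0.00286 to 0.0297. With median-of-ratios scaling and without A29, 3 were higher (10.7% of genes) and 11 lower (11.4%). Slc25a12 passed in 7 of 25 alternatives and Slc25a34 in 4 of 20, and the adjusted p-values of the others reached 0.213 for both.

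**Figure D5:**
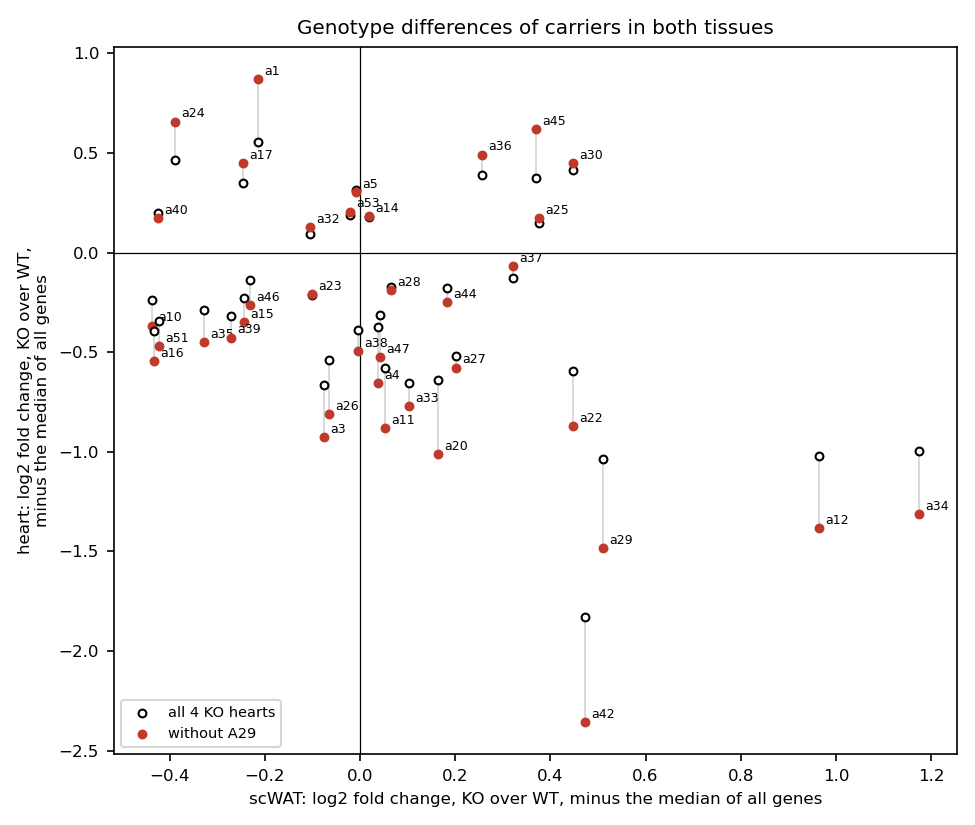
Log2 fold change of carriers in KO over WT hearts (vertical axis) against scWAT (horizontal axis), each minus the median of all tested genes, with all 4 KO hearts (open) and without A29 (filled). Slc25a12 and Slc25a34 lie apart at the lower right, lower in heart and higher in scWAT of KO mice.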

How the data were processed

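Total RNA extracted with Trizol was made into Illumina TruSeq libraries, per the labels' protocols. The authors deposited 1 table of TPM values per library, whose reads-to-gene program and genome build are not named in any source used for this report. Each table summed to 1e+06. Reads shared between near-identical carriers may have been split differently by that program.

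Values were taken as log2(TPM + 1), and genes with a mean under 1 TPM over the libraries of a comparison were left out (in each tissue for the comparison of genotype effects). Linear models with trended variance were fitted over all remaining genes with limma 3.58.1 in R 4.3.3, with Benjamini-Hochberg adjustment over all of them and a threshold of 0.05. Groups came from the labels, and replicates are mice. The fits were tested on simulated data, in which log2 changes of 3 were recovered for 94.5% to 99.5% of 200 genes. Between 9 and 13 unchanged genes were called per fit. The changes were planted only in genes with a mean over 3 on the log2 scale, and no simulated library deviated as A29 did. The recovery of smaller changes or of low genes was therefore not tested. Named were the carriers past the threshold, the nearest to it where few passed, the 8 highest of each tissue in WT mice and near-identical pairs. The carriers and lists were chosen with earlier results of these data known. Hearts and scWAT of 4 WT mice and of KO mouse A30 came from the same animals. In the 4 WT mice the deviations of both tissues correlated at 0.037 to 0.167, and A30 was not part of that check. Alternatives covered pseudocounts, filters, scalings, library weights, covariates, mouse as a block and leaving out each library. Values of 1 carrier are not reported here, though it stands in the counts.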

Additional observations from a re-analysis of the deposited data

Results flagged for a closer look

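In each group of 4 or 5 libraries the gap between the end library and its nearest neighbour was divided by the range of the group, and 10 of 84 such groups over 28 named carriers had a gap past the 95% critical value of Dixon's test. Chance alone gives about 1 in 20. A29 was the end library in 0 of the 10.

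The WT heart A5 had such a gap below the other WT hearts for 4 carriers. For the phosphate carrier Slc25a3 it had 705 TPM, against 965 to 1011 TPM in the other WT hearts (gap 0.848 of the range). For Slc25a12 it had 67.9 TPM, against 106 to 113 TPM (0.853), for the glutamate carrier Slc25a22 4.43 TPM, against 13.98 to 15.5 TPM (0.859), and for the iron carrier Slc25a37 1.78 TPM, against 4.07 to 4.27 TPM (0.917). The same library had the highest share of mitochondrially encoded transcripts of the WT hearts, 60.6%, whose part was not tested.

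The other 6 gaps were spread over other libraries. In KO hearts, A30 had 75.3 TPM of the glutathione carrier Slc25a39, against 56.1 to 58.9 TPM in the others (0.854), and 0.0211 TPM of Slc25a48, against 0 TPM in the others (1 of the range). In WT scWAT, A14 had 1.14 TPM of Slc25a34, against 0.16 to 0.292 TPM in the others (0.865), and 2.61 TPM of Slc25a48, against 0.567 to 1.04 TPM (0.768). The pyrimidine nucleotide carrier Slc25a36 stood at 33.0 TPM in the WT scWAT of A8, against 24.3 to 26.8 TPM in the others (0.71). Slc25a45 stood at 6.17 TPM in the WT scWAT of A12, against 8.34 to 8.92 TPM in the others (0.786).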

How the results depend on the processing

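All values here are counts of carriers past an adjusted p of 0.05 (higher, lower) or changes relative to the median of all genes. In heart, array weights gave 11 higher and 15 lower, and leaving out one library gave 0 to 9 higher and 0 to 8 lower, where 9 and 8 came without A29 and all other hearts gave 0. Without A29, median-of-ratios scaling gave 6 and 22, and removal of mitochondrially encoded genes 8 and 12. These combined settings, and the setting apart of A29, were chosen after seeing the data. Slc25a53 in heart was -0.0013 with a pseudocount of 5. In scWAT, array weights gave 1 higher (Slc25a12, adjusted p = 0.04), leaving out libraries gave 0, and Slc25a30 was -0.37 with muscle and B cell covariates. Between tissues, median-of-ratios scaling gave 17 higher and 16 lower, and removal of mitochondrially encoded genes 11 and 17. Leaving out libraries gave 6 to 7 higher and 25 to 27 lower. Slc25a5 was -0.21 with a pseudocount of 5 and -0.64 with no filter. Slc25a39 was 0.16 with a pseudocount of 0.25, 0.13 with a filter of 5 TPM, 0.20 with median-of-ratios scaling and 0.16 without mitochondrially encoded genes, and -0.076 to 0.037 with libraries left out. For the difference of genotype effects, median-of-ratios scaling gave 1 lower, removal of mitochondrially encoded genes 2 lower, array weights 7 higher and 9 lower, and median-of-ratios scaling without A29 3 higher and 11 lower. Leaving out libraries gave 0 to 5 higher and 0 to 4 lower, with 5 and 4 without A29, 1 lower without the scWAT of KO mouse A26 and 2 lower without the heart of WT mouse A5. The cause of these shifts was not tested. With the mouse as a replicate block, the tissues differed for 6 higher and 26 lower carriers and the genotype effects for 0 and 0, and no call of a carrier changed. In all, 606 of the values of single carriers kept direction and side of the threshold, 88 newly passed it, 1 no longer passed it and 13 turned sign. In scWAT and in the difference of genotype effects, Slc25a34 had no value with a filter of 5 TPM or without the scWAT of KO mouse A26 or A30, and in that difference none with median-of-ratios scaling, since its mean was then under the minimum. Without counts, depth gives no interval for low carriers such as Slc25a34 and Slc25a48.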

Other observations

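Within WT scWAT, mice A5 and A7 stood apart in several carriers, among them those around citrate and NAD, a pattern noticed after the values were seen. It was not particular to citrate and NAD. All carriers together summed to 3625, 3292, 2313, 2153 and 2610 TPM in WT scWAT. A5 and A7 were also the highest for Slc25a3, Slc25a4, Slc25a5 and Slc25a39, and the lowest for Slc25a20 and Slc25a23. Slc25a1 had 784, 751, 302, 316 and 367 TPM in WT scWAT, Slc25a10 had 542, 420.3, 120.02, 157 and 189 TPM and Slc25a51 had 111, 117, 73.8, 72.2 and 90.3 TPM, and for each the values of A5 and A7, given before the others, were the highest of the 5. Slc25a35, a carrier of unsettled substrate, had 66.2, 58.2, 32.9, 32.2 and 32.6 TPM, with the same 2 mice on top. The KO scWAT libraries had 482, 398 and 348 TPM of Slc25a1, 223, 201 and 135 TPM of Slc25a10, 72.3, 63.9 and 72.00 TPM of Slc25a51 and 39.6, 30.9 and 32.9 TPM of Slc25a35, all below A5 and A7.

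A pair of cytosolic enzymes of fat synthesis were highest in the same mice. Acly, which splits exported citrate into acetyl-CoA, had 123, 73.2 and 70.8 TPM in KO scWAT and 689, 459, 83.6, 63.6 and 58.9 TPM in WT scWAT. Me1, the cytosolic malic enzyme that makes NADPH, had 262, 197 and 246 TPM in KO scWAT and 1016, 776, 226, 286 and 276 TPM in WT scWAT. Slc25a1 differed more among WT mice than between the means of the genotypes, and no test was made of this split.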
